A study of Mus musculus with 9 samples.

Results

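Collagen chain genes encode the alpha chains that fold in sets of 3 into the collagen triple helix. The members are all genes whose symbol in the deposited gene table reads Col, a number, the letter a and a number, and they were 40 of the 27945 genes with a value there. By class, 10 of them are fibrillar chains, 9 are chains of basement membranes or the zone beneath them, and 21 are other chains such as those of type VI microfibrils, fibril-associated collagens and transmembrane collagens. A further 4 collagen chain genes of the annotation, Col2a1, Col9a2, Col19a1 and Col28a1, had 0 counts in all 9 libraries and are no members. The study sequenced poly(A) RNA from mouse liver as 9 libraries, with 3 from livers labelled treated, 3 from livers labelled model and 3 from livers labelled control. The series title refers to liver injury caused by gefitinib, a kinase inhibitor that acts on the epidermal growth factor receptor. The labels state neither what the treated mice received nor a dose, time, strain, sex, age or batch, and nothing shared by all 3 groups beyond the species and tissue. They name the samples both liver and liver cells, so the word livers stands here for the labelled source. Whether each library stands for its own animal is not stated, and p-values therefore measure the spread between libraries, which may be partly technical.

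Fibrillar collagens assemble into the banded fibres that give tissue its tensile strength, and types I and III are the main collagens of scar tissue in liver. Type IV collagen forms the sheet-like network of basement membranes, which in liver surrounds vessels and bile ducts and is sparse along the sinusoids. Collagen chains in liver are made by stellate cells, portal fibroblasts and endothelial cells, and type XVIII collagen largely by hepatocytes. A chain is modified and folded in the endoplasmic reticulum, trimmed by proteinases after secretion, and cross-linked by lysyl oxidases.

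The libraries held 56440871 to 60665156 estimated counts, in which 1 count is worth 0.0147 to 0.0192 CPM (counts scaled to the normalised library size). Summed markers of hepatocytes stood at 66178 to 79260 CPM in treated, 82805 to 87095 CPM in model and 80734 to 92688 CPM in control livers, so the labelled tissue was present in all libraries. Transcripts of skeletal muscle summed to 130.6 to 197 CPM in the 3 treated libraries and model replicate 1, while the other 5 libraries held no more than 1.38 CPM. Macrophage markers summed to 632 to 809 CPM in treated, 155 to 234.5 CPM in model and 109 to 171 CPM in control livers, and endothelial markers to 94.4 to 140 CPM, 159 to 189 CPM and 358 to 459 CPM in the same order. The macrophage sum in treated livers was largely Lyz2 and Gpnmb, with means of 261 and 254 CPM. Their means were 40.4 and 7.47 CPM in model and 24.6 and 1.56 CPM in control livers. Cd68 and Trem2 were also called higher in treated than in control livers, while Adgre1 and Clec4f were called in no comparison.

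Per unit length, Col18a1 was the most abundant collagen transcript in each group. This chain of type XVIII collagen carries endostatin at its end. Its mean FPKM (fragments per kilobase of transcript, scaled to library size) was 85.4 ± 8.30 in treated, 110.2 ± 14.4 in model and 114 ± 5.03 in control livers (SD, n = 3 each). It made up 57.6% ± 2.40 of the summed FPKM of the 40 genes in treated livers, against 80.4% ± 3.56 in model and 76.9% ± 3.95 in control livers. The sum of all 40 genes was 148.5 ± 15.6 FPKM in treated, 137 ± 12.2 FPKM in model and 148.6 ± 8.95 FPKM in control livers, so the summed level overlapped between the groups, while the share of Col18a1 was lower in each treated library (55.8% to 60.3%) than in any other library (72.5% to 82.8%).

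The 10 fibrillar chains summed to 30.0, 41.6 and 29.4 FPKM in the treated libraries, to 10.4, 12.1 and 11.8 FPKM in the model libraries, and to 19.0, 11.6 and 12.7 FPKM in the control libraries. Each treated library lay above each model and control library, and control replicate 1 lay above the other control libraries. The 8 basement membrane chains other than Col18a1 summed to 15.6 ± 0.944 FPKM in treated, 7.23 ± 0.881 FPKM in model and 7.83 ± 2.39 FPKM in control livers. The 21 other chains summed to 13.9 ± 1.64 FPKM in treated, 7.89 ± 0.946 FPKM in model and 12.1 ± 1.41 FPKM in control livers. All FPKM here are as deposited, without the normalisation factors (TMM) that scale CPM. Those factors were 1.05 to 1.14 in treated, 0.9485 to 0.998 in model and 0.905 to 0.978 in control libraries. FPKM of treated livers therefore stand higher beside the other groups than CPM would put them. Shares within a library are not affected. By rank of mean FPKM among the 40 genes, Col3a1 stood 2nd in treated livers, against 7th in model and 7th in control livers. Col1a1 stood 4th in treated, 10th in model and 14th in control livers, and Col27a1 stood 12th in treated, 5th in model and 2nd in control livers. These levels depend on the gene length used, since the deposited gene FPKM of Col1a2 and Col3a1 were lower than those of their main transcripts, by a median factor of 2.31 for Col1a2 and 1.76 for Col3a1, against 1.11 for Col1a1.

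**Figure D1:**
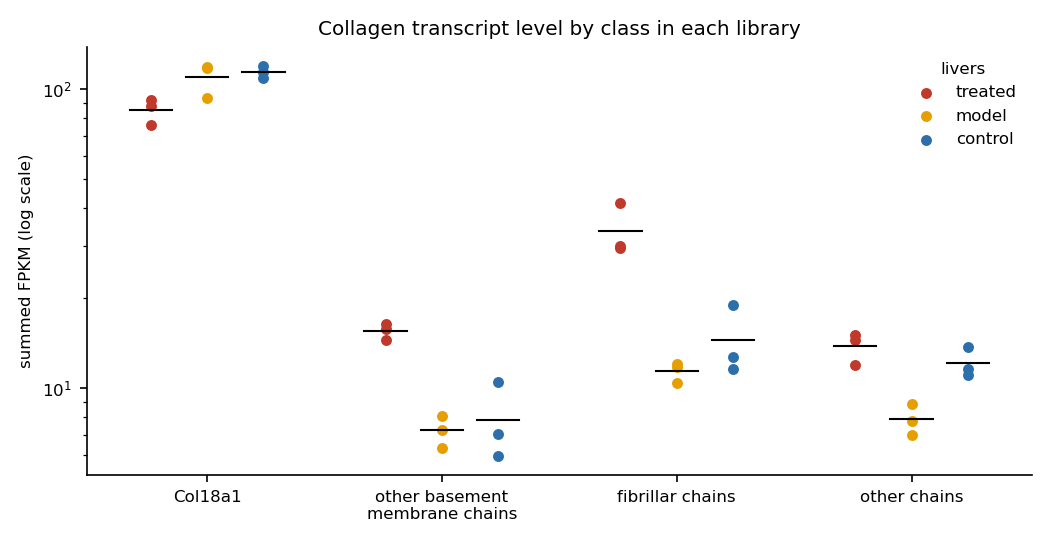
Summed FPKM (log scale) of Col18a1, the other basement membrane chains, the fibrillar chains and the other chains, with 1 point per library and a line at the mean of each group of 3. The fibrillar chains lie at 29.4 to 41.6 FPKM in treated livers, above the 10.4 to 19.0 FPKM of model and control livers, and Col18a1 lies above all other classes in each group.

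Of the 40 genes, 34 had enough counts to be tested, which were 9 of 10 fibrillar, 9 of 9 basement membrane and 16 of 21 other chains. Calls rest on edgeR's quasi-likelihood fit of all 9 libraries, at an adjusted p under 0.05 (Benjamini-Hochberg, over all 18113 genes tested). In treated compared with model livers, 7 collagen chains were called higher and 2 lower, where 5.21% of all genes tested were called higher and 4.44% lower. The 2 of 34 called lower there are near that share of all genes. In treated compared with control livers, 9 were called higher and 6 lower, where 9.36% of all genes were called higher and 8.47% lower. In model compared with control livers none was called, where 1.12% of all genes were called, and 10 had an unadjusted p under 0.05, as did 13.9% of all genes. In that comparison DESeq2 called 4 collagen chains, of which Col12a1 was higher and Col11a2, Col20a1 and Col27a1 lower, beside 4.81% of all genes, and limma-voom called Col11a2 lower, beside 0.905% of all genes. The median log2 fold change of the 34 tested genes was 0.47 in treated over model, 0.39 in treated over control and -0.20 in model over control, beside 0.01, -0.01 and 0.00 over all genes in the same order. The comparisons share libraries and are therefore not independent of each other.

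Promoter sequence is shown for 4 of the called genes, Col3a1 and Col6a3 as genes that were higher in treated livers and Col27a1 and Col18a1 as genes that were lower, so that the bases upstream of them can be compared. They were chosen after their values were seen. Each run is the part of RefSeq's 250 bases before its transcript start that lies outside annotated exons, is read 5′ to 3′ on the gene's strand and comes from RefSeq on GRCm38.p6, at chr1:45311288-45311537 (plus strand) for Col3a1, chr1:90843972-90844221 (minus strand) for Col6a3, chr4:63215162-63215411 (plus strand) for Col27a1 and chr10:77166549-77166780 (minus strand) for the upstream start of Col18a1. The Col18a1 run has 232 bases because the files' first exon begins within its RefSeq window, and the RefSeq start of Col27a1 lies inside the gene as the files give it. Capitals mark matches, on either strand, to the CCAAT box (CCAAT or ATTGG), the GC box (GGGCGG or CCGCCC) and TATAAA (or TTTATA).
Col3a1: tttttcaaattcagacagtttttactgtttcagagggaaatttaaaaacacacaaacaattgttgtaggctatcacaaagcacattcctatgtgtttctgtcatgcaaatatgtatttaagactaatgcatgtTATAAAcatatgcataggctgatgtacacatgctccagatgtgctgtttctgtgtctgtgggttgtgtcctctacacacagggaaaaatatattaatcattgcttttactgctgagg
Col6a3: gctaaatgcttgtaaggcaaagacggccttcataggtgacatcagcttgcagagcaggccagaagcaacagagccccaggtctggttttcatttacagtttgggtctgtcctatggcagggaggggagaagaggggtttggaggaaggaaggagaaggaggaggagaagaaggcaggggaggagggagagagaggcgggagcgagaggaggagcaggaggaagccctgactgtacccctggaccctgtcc
Col27a1: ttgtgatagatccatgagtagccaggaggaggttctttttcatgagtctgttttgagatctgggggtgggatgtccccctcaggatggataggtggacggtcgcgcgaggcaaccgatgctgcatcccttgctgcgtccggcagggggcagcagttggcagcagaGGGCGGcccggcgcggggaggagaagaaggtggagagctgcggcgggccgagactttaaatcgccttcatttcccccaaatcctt
Col18a1: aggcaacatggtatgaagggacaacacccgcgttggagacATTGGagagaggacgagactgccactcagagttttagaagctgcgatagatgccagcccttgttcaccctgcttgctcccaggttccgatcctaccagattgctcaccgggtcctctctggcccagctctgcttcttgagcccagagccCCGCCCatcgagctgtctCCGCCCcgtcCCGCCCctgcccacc
The run of Col3a1 had a GC content of 35.2%, no CpG and a single TATAAA, whose first base lies 117 bases before the gene's start. That of Col6a3 had a GC content of 57.2%, 3 CpG and none of the motifs. That of Col27a1 held 15 CpG and 1 GC box at a GC content of 59.6%, and that of Col18a1 held 11 CpG, 3 GC boxes and 1 CCAAT box at 60.8%. Of 32851 mouse promoter windows of 250 bases, 33.8% held a CCAAT box, 32.7% a GC box and 12.4% TATAAA. RefSeq windows matched 32 of the 40 genes, and of their 35 windows 37.1% held a CCAAT box, 60% a GC box and 14.3% TATAAA. Among the other called genes with a window, those higher in treated livers held 2 GC boxes in Col1a2 and none in Col4a1, Col6a1 or Col15a1. Those lower held 2 in Col11a2, 1 in Col7a1 and none in Col13a1 or Col20a1. CpG ran from 3 (Col6a1) to 31 (Col4a1) in the former and from 1 (Col20a1) to 24 (Col13a1) in the latter. Among these same genes, TATAAA was found in Col11a2 and Col13a1, both lower, and in none of those that were higher. A CCAAT box was found in Col1a2 and Col4a1, both higher, and in Col7a1, which was lower. The downstream window of Col18a1 held 3 CpG and none of the motifs.

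Types I and III, the chains of the main fibres, showed the largest called rises in treated livers. Col1a1 (ENSMUSG00000001506, chromosome 11, 94936224 to 94953042, GRCm38), the alpha 1 chain of type I collagen, had 47.8, 71.9 and 47.0 CPM in the treated libraries, 7.62, 9.32 and 6.11 CPM in the model libraries, and 6.24, 5.86 and 4.70 CPM in the control libraries. All treated libraries lay far above the rest, and model and control libraries overlapped. It was 7.23-fold higher in treated than in model livers (log2 fold change 2.85, SE 0.21, adjusted p = 6.8e-05) and 9.92-fold higher in treated than in control livers (adjusted p = 1.36e-05), while model and control livers did not differ at the threshold (1.37-fold, adjusted p = 0.354). Col1a2, the alpha 2 chain of type I, had 46.6, 69.5 and 45.4 CPM in treated, 9.49, 15.4 and 10.6 CPM in model, and 17.1, 14.5 and 11.1 CPM in control libraries. It rose 4.55-fold in treated over model livers (adjusted p = 0.000773) and 3.79-fold in treated over control livers (adjusted p = 0.000719). Col3a1 (ENSMUSG00000026043, chromosome 1, 45311538 to 45349706), the chain of type III collagen, had 129, 175 and 136 CPM in treated, 19.7, 30.0 and 29.1 CPM in model, and 48.7, 25.3 and 21.7 CPM in control libraries. Treated libraries again lay above all others, and control replicate 1 was the highest of the rest. Its fold change was 5.57 in treated over model (log2 2.48, SE 0.33, adjusted p = 0.00353) and 4.598 in treated over control livers (log2 2.20, SE 0.32, adjusted p = 0.00292). In bulk tissue, more cells of a type and more RNA per cell cannot be told apart.

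Type V chains join type I fibres and limit their width, and Col5a2 was the chain of this type that was called. Col5a2 had 6.18, 11.4 and 6.64 CPM in treated, 1.73, 3.33 and 1.96 CPM in model, and 4.45, 1.81 and 1.74 CPM in control libraries. Treated libraries lay above the others, with control replicate 1 the nearest to them. It rose 3.45-fold in treated over model livers (adjusted p = 0.026) and 3.03-fold in treated over control livers (adjusted p = 0.0252). Col5a1 had 14.4, 14.7 and 13.6 CPM in treated, 8.27, 9.56 and 7.80 CPM in model, and 13.8, 6.92 and 8.23 CPM in control libraries, and was not called in treated over model (1.67-fold, adjusted p = 0.0682) or in treated over control livers (1.48-fold, adjusted p = 0.116). Col5a1 was called in treated over model livers by DESeq2, limma-voom and the fit of only the 2 groups (lowest adjusted p = 0.0166), and in treated over control livers without control replicate 1 (adjusted p = 0.00746). Col5a3 had 15.02, 27.1 and 17.4 CPM in treated, 26.1, 23.0 and 22.7 CPM in model, and 21.1, 16.7 and 20.8 CPM in control libraries, with treated replicate 2 well above the other treated libraries and no call in any comparison. The Col5a2 fold change in treated over control livers was 2.19 on the log2 scale without control replicate 1, against 1.60 with it. The Col5a2 calls were lost without treated replicate 2 in both comparisons, without model replicate 1 or 3 in treated over model (highest adjusted p = 0.106), and without control replicate 2 or 3 in treated over control livers (highest adjusted p = 0.092).

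Col27a1 and Col11a2 were the fibrillar chains called lower in treated livers. Col27a1 (ENSMUSG00000045672, chromosome 4, 63214004 to 63333749 as the files give it), known as a thin-fibril collagen of cartilage, had 11.2, 23.5 and 19.5 CPM in treated, 44.2, 35.5 and 51.6 CPM in model, and 117, 73.3 and 81.2 CPM in control libraries. The groups were ordered without overlap, with treated lowest and control highest. It fell 5.01-fold in treated relative to control livers (log2 fold change -2.33, SE 0.30, adjusted p = 0.00143) and 2.43-fold in treated relative to model livers (adjusted p = 0.0299), and was 2.07-fold lower in model than in control livers without a call (adjusted p = 0.146, range 0.00393 to 0.355 over 14 alternatives). The call in treated over model was lost in 5 of 14 alternatives, including those without model replicate 1, model replicate 3 or treated replicate 3 (highest adjusted p = 0.0905), while that in treated over control was kept in all 14. Col11a2, a chain of type XI collagen of cartilage, had 1.64, 1.21 and 1.34 CPM in treated, 2.38, 2.25 and 2.76 CPM in model, and 5.004, 4.98 and 6.997 CPM in control libraries. It too was ordered without overlap, fell 4.05-fold in treated relative to control livers (adjusted p = 0.000537), and stood just outside the threshold in model over control livers (2.30-fold lower, adjusted p = 0.0512) and in treated over model livers (1.76-fold lower, adjusted p = 0.0696). Of the 7 cartilage and bone markers, Acan, Matn1, Bglap and Ibsp had no match by symbol in the deposited gene table. The other 3 summed to 2.28 to 5.03 CPM in treated, 1.35 to 3.38 CPM in model and 2.25 to 4.63 CPM in control livers. Most of that sum was Sox9, which also marks bile duct cells, at 1.35 to 4.63 CPM over the 9 libraries. Comp and Sp7 stayed at or below 0.572 CPM. Col24a1 ranged from 0.315 to 0.961 CPM over the 9 libraries with no call, and Col11a1 was not tested, with 0.947 CPM in treated replicate 2 as its highest value.

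**Figure D2:**
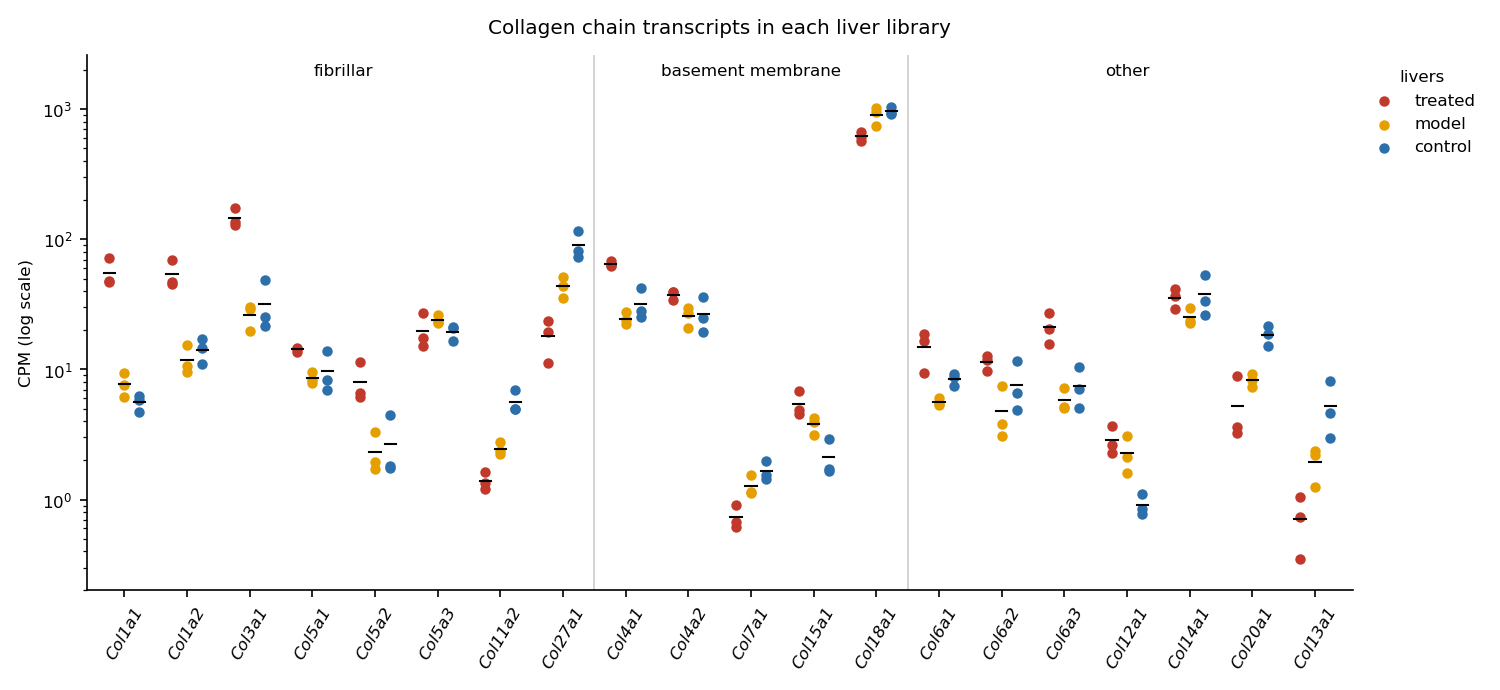
CPM (log scale) of the 20 collagen chain genes named with all their values, grouped by class, with 1 point per library and a line at the mean of each group of 3. Col1a1, Col1a2 and Col3a1 lie higher in all 3 treated libraries than in any other library, while Col27a1, Col11a2 and Col13a1 step up in the order treated, model, control.

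Among basement membrane chains, Col4a1 was higher in treated livers and its partner Col4a2 was not called. The alpha 1 and alpha 2 chains together form the type IV network found in nearly all basement membranes. Col4a1 (ENSMUSG00000031502, chromosome 8, 11198423 to 11312826) had 62.1, 67.7 and 63.7 CPM in treated, 23.99, 27.5 and 22.2 CPM in model, and 42.2, 28.2 and 25.5 CPM in control libraries. The treated libraries were close to each other and above all others, and control replicate 1 stood apart from the other 2 control libraries. It rose 2.63-fold in treated over model livers (log2 fold change 1.39, SE 0.17, adjusted p = 0.000845) and 2.02-fold in treated over control livers (adjusted p = 0.00239). Col4a2 had 39.1, 39.6 and 34.4 CPM in treated, 29.5, 27.2 and 20.9 CPM in model, and 36.2, 24.7 and 19.3 CPM in control libraries. Its treated libraries lay above the model libraries but overlapped control replicate 1, and its fold changes of 1.46 over model (adjusted p = 0.141) and 1.41 over control livers (adjusted p = 0.135) did not pass. Col4a2 passed in treated over control livers with the replicate block and without control replicate 1 (lowest adjusted p = 0.0149), and in treated over model livers in the fit of only the 2 groups (adjusted p = 0.0471). Both genes are transcribed away from each other from overlapping starts, at chr8:11312805-11312826, where the annotated ends of the genes share 22 bases. These bases are shown on the plus strand from RefSeq on GRCm38.p6, since a single stretch serves as the start of a chain that was called and of one that was not. Motifs are not capitalised here. The stretch holds a GC box (GGGCGG), which lies outside the upstream windows of both genes and was not counted in them.
Col4a1 and Col4a2 shared start: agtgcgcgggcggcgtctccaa
The other type IV pairs are also arranged head to head, with 71 bases between Col4a3 and Col4a4 and 1308 bases between Col4a5 and Col4a6. None of these 4 was called. Col4a3 ranged from 0.485 to 1.45 CPM over the 9 libraries, Col4a4 from 0.158 to 1.27 CPM, Col4a5 from 1.77 to 4.54 CPM and Col4a6 from 0 to 0.693 CPM.

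Col18a1 (ENSMUSG00000001435, chromosome 10, 77052178 to 77166548) was lower in treated livers. It had 613, 675 and 569.9 CPM in treated, 1018, 745 and 957 CPM in model, and 934.5, 1046 and 924 CPM in control libraries. All treated libraries lay below all others, and model replicate 2 was the nearest to them. The fold change was 1.56-fold lower in treated than in control livers (log2 -0.64, SE 0.14, adjusted p = 0.00801) and 1.46-fold lower in treated than in model livers (log2 -0.55, SE 0.14, adjusted p = 0.0287). The second call was lost in 5 of 14 alternatives, without model replicate 1 or 3, without treated replicate 1 or 3 and with the replicate number as a block (highest adjusted p = 0.112). The gene has an upstream and a downstream start, and the transcript from the upstream start (ENSMUST00000081654, 42 exons) had 66.2 ± 6.66 FPKM in treated, 78.5 ± 13 FPKM in model and 87.1 ± 6.55 FPKM in control livers. The transcript from the downstream start (ENSMUST00000105409, 41 exons) had 35.7 ± 16.2 FPKM in treated, 44.9 ± 11.6 FPKM in model and 44.4 ± 17.3 FPKM in control livers. The downstream transcript varied more between libraries of a group than between groups.

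Col15a1, a relative of Col18a1 found in basement membranes of vessels and muscle, lay highest in treated livers. It had 4.58, 6.80 and 4.88 CPM in treated, 4.23, 3.15 and 3.97 CPM in model, and 2.93, 1.73 and 1.66 CPM in control libraries. The groups did not overlap, with model between the others, and the call was in treated over control livers (2.57-fold higher, adjusted p = 0.00873). Col7a1, the chain of the anchoring fibrils beneath epithelia, had 0.675, 0.611 and 0.913 CPM in treated, 1.15, 1.12 and 1.56 CPM in model, and 1.54, 1.44 and 1.98 CPM in control libraries. It was 2.25-fold lower in treated than in control livers (adjusted p = 0.0442). That call did not survive 9 of 14 alternatives, including the removal of any single treated or control library (highest adjusted p = 0.129).

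Of the type VI chains, which form beaded microfibrils around cells, Col6a1 and Col6a3 were higher in treated livers. Col6a3, the longest of the 3 classical chains, had 15.7, 27.0 and 20.6 CPM in treated, 5.08, 7.18 and 5.13 CPM in model, and 10.4, 7.11 and 5.06 CPM in control libraries. Treated libraries lay above all others. It rose 3.64-fold in treated over model livers (log2 fold change 1.86, SE 0.28, adjusted p = 0.00323) and 2.80-fold in treated over control livers (adjusted p = 0.00485). Col6a1 had 9.42, 18.8 and 16.5 CPM in treated, 5.35, 6.04 and 5.42 CPM in model, and 9.19, 8.81 and 7.41 CPM in control libraries. Treated replicate 1 was close to control replicate 1, and the other treated libraries were well above. The rise was 2.66-fold in treated over model livers (adjusted p = 0.00431) and 1.76-fold in treated over control livers (adjusted p = 0.0321), the second lost in 8 of 14 alternatives, including without any 1 control library and without treated replicate 2 or 3 (highest adjusted p = 0.121). Col6a2 had 9.81, 11.9 and 12.6 CPM in treated, 3.10, 7.41 and 3.83 CPM in model, and 4.84, 6.54 and 11.6 CPM in control libraries, and was not called in treated over model livers (2.39-fold, adjusted p = 0.0667) or treated over control livers (1.49-fold, adjusted p = 0.331). In treated over model livers it was called in 5 of 14 alternatives (lowest adjusted p = 0.0074), which were the replicate block, DESeq2, limma-voom, the fit of only the 2 groups and the fit without model replicate 2. The alternative chains Col6a4, Col6a5 and Col6a6 stayed at or below 4.78 CPM in every library without a call, and that highest value was Col6a6 in treated replicate 3.

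Among collagens that bind to the surface of fibrils, Col12a1 had 3.70, 2.29 and 2.63 CPM in treated, 3.10, 2.11 and 1.59 CPM in model, and 1.11, 0.769 and 0.840 CPM in control libraries. Control libraries lay below all others, and the call was in treated over control livers (3.17-fold higher, adjusted p = 0.00843), with model over control at 2.50-fold and an adjusted p = 0.102 (range 0.0149 to 0.281 over 14 alternatives). Col14a1 had 29.1, 36.4 and 41.5 CPM in treated, 22.8, 29.6 and 23.8 CPM in model, and 53.7, 33.7 and 26.1 CPM in control libraries, with overlap in all comparisons and no call. Col20a1 had 8.96, 3.22 and 3.64 CPM in treated, 9.29, 7.34 and 8.31 CPM in model, and 15.2, 18.6 and 21.4 CPM in control libraries. Treated replicate 1 lay among the model libraries and all control libraries lay above, and the gene was 3.49-fold lower in treated than in control livers (log2 fold change -1.80, adjusted p = 0.00771, and -2.42 without treated replicate 1). Without that library it was also lower in treated than in model livers (adjusted p = 0.00624, against 0.293 with it). Col20a1 shares 79 exon bases with a gene on the same strand, BX649560.1, so part of its value is uncertain.

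Col13a1, a transmembrane collagen of cell contacts, showed the largest fall among the 34 tested chains in treated relative to control livers. It had 0.352, 1.04 and 0.740 CPM in treated, 2.20, 1.25 and 2.34 CPM in model, and 2.98, 4.61 and 8.12 CPM in control libraries. The 3 groups did not overlap, and the control libraries were the most spread. It was 7.36-fold lower in treated than in control livers (log2 fold change -2.88, SE 0.49, adjusted p = 0.00265), and 2.71-fold lower in treated than in model livers (adjusted p = 0.0838) and in model than in control livers (adjusted p = 0.183). Its transcript ENSMUST00000105454 made up at least 99.8% of the gene's transcript FPKM in each treated library, 40.5%, 75.8% and 99.97% in the model libraries, and 18.4%, 17.3% and 21.03% in the control libraries. The transcript ENSMUST00000105452 made up 79.8%, 79.7% and 0% in the control libraries and ENSMUST00000105453 made up 1.52%, 2.22% and 48.6%, so the split between transcripts varied between libraries of a group. The remaining chains tested without a call were low. Col16a1 ranged from 2.34 to 4.37 CPM, and Col8a1, Col8a2, Col9a3, Col17a1 and Col23a1 each stayed at or below 1.16 CPM in every library. The 6 genes not tested were Col9a1, Col10a1, Col11a1, Col22a1, Col25a1 and Col26a1, with a highest value of 0.947 CPM.

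**Figure D3:**
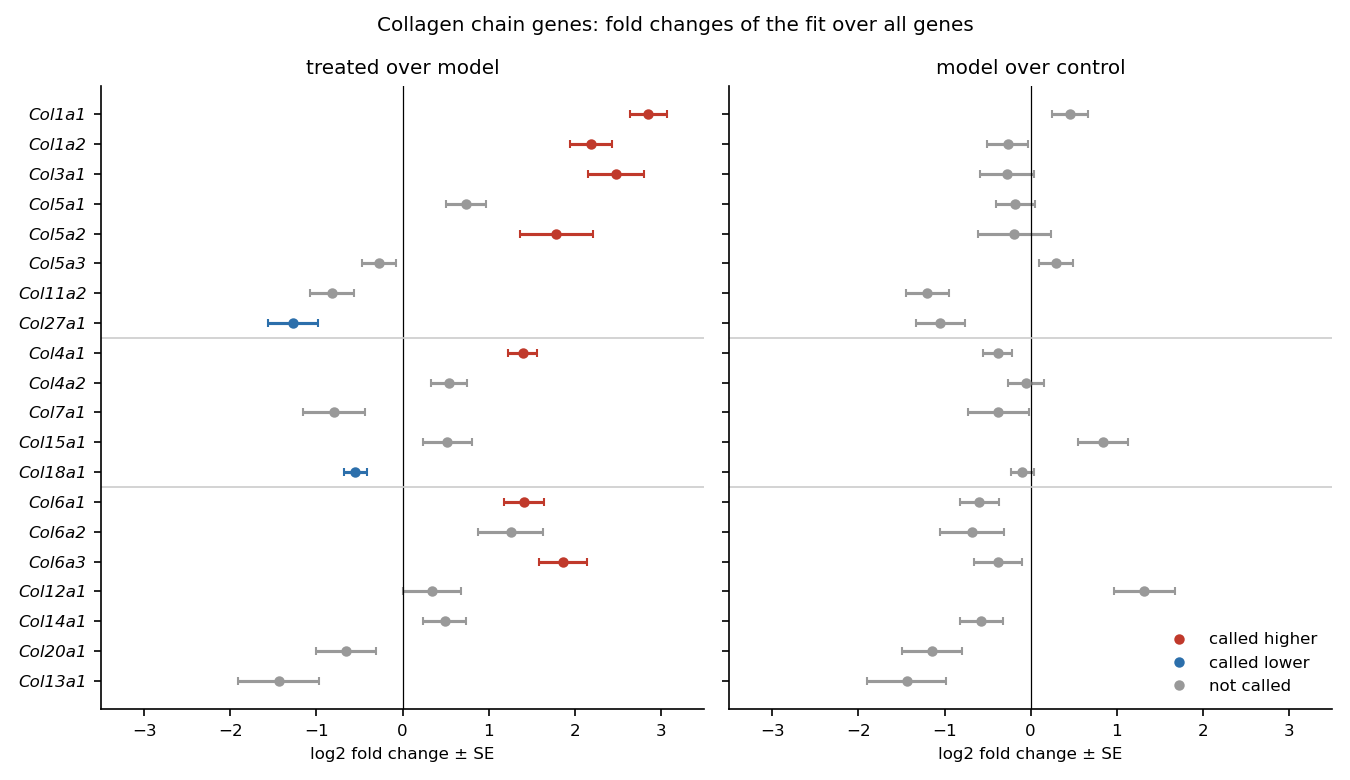
Log2 fold change with its SE for the 20 named collagen chains, treated over model livers on the left and model over control livers on the right, with calls at an adjusted p under 0.05 in colour. In treated over model livers 7 chains are called higher and 2 lower, and in model over control livers none is called.

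The 7 chains called higher in treated over model livers shared the highest library of each group. All 7 were highest in treated replicate 2 among the treated libraries, in model replicate 2 among the model libraries and in control replicate 1 among the control libraries. Among all 20 named chains the same libraries were highest for 14, 10 and 14 in that order. The share over all genes was not computed, so the pattern cannot be called particular to collagen chains. The 12 markers of stellate cells and fibroblasts other than collagens, all of them with counts, summed to 219 to 239 CPM in treated, 155 to 192 CPM in model and 215 to 276 CPM in control livers. Dcn was the largest part of these sums, at 73.2 to 133 CPM over the 9 libraries. In treated over model livers 1 of the 12, Lum, was called higher, beside 5.21% of all genes. There 6 of the 12 had an unadjusted p under 0.05, as did 4368 of 18113 genes, and of the 6 only Lrat was lower. In treated over control livers Lum was called higher and Colec11, Lrat and Ngfr lower, beside 9.36% and 8.47% of all genes. Portal fibroblast and mesothelial markers summed to 18.5 to 28.5 CPM in treated, 7.84 to 11.4 CPM in model and 12.48 to 21.2 CPM in control livers, with Eln and Mfap4 of 8 called higher in treated over model livers, beside 5.21% of all genes, and none in treated over control livers (2 with an unadjusted p under 0.05). Model replicate 1, which held muscle transcripts like the treated libraries, was the highest model library for 2 of the 9 chains called higher in treated over control livers, Col12a1 and Col15a1, and model replicate 2 was the highest for the other 7. The part of macrophage, endothelial and muscle transcripts in the collagen values was not tested.

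Chains that share a molecule were compared by their ratio within each library, which does not depend on library size. A type I molecule joins a pair of alpha 1 chains with a single alpha 2 chain. The ratio of Col1a1 to Col1a2 FPKM was 1.94, 1.96 and 1.96 in the treated libraries, 1.52, 1.15 and 1.09 in the model libraries, and 0.689, 0.767 and 0.805 in the control libraries. No group overlapped another, treated being highest and control lowest. Per kilobase of main transcript the same ratio averaged 0.930 ± 0.00559 in treated, 0.597 ± 0.111 in model and 0.359 ± 0.0274 in control livers, so its size depends on the length used. The order of the libraries could not change, since the 2 measures differ by a constant factor. The ratio was 1.58-fold higher in treated than in model, 2.598-fold higher in treated than in control and 1.65-fold higher in model than in control livers. Each of these had a 2-sided exact permutation p = 0.1, the smallest that 3 against 3 libraries can give, and 0.15 after adjustment over the 12 ratio tests, so none could pass 0.05.

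The ratio of Col4a1 to Col4a2 was 1.41, 1.52 and 1.64 in treated, 0.721, 0.896 and 0.940 in model, and 1.03, 1.01 and 1.17 in control libraries. Treated libraries lay highest and model libraries lowest, without overlap (exact permutation p = 0.1 in each comparison). The ratio of Col5a1 to Col5a2 was 2.63, 1.45 and 2.30 in treated, 5.38, 3.22 and 4.51 in model, and 3.49, 4.37 and 5.34 in control libraries. Treated libraries lay below the others, which overlapped. The ratio of Col6a1 to Col6a2 averaged 2.44 ± 0.592 in treated, 2.52 ± 0.890 in model and 2.47 ± 1.21 in control livers, with overlap throughout (exact permutation p = 0.9 to 1).

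**Figure D4:**
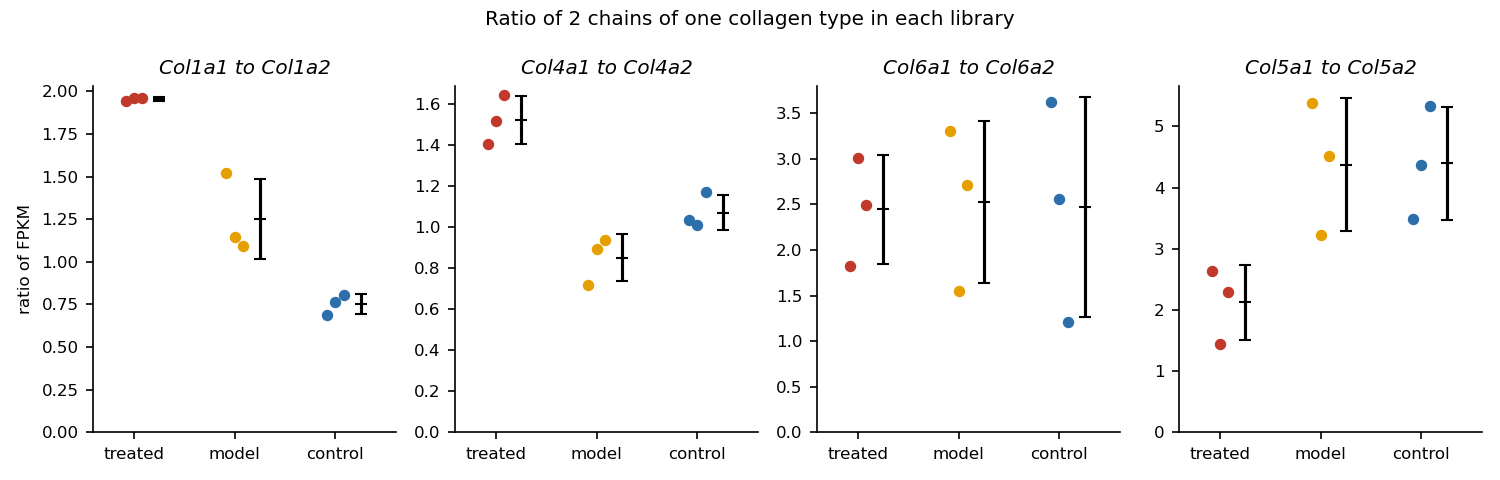
Ratio of the FPKM of 2 chains of the same collagen type in each library, with points for libraries and bars for the mean ± SD of 3. Col1a1 to Col1a2 steps down from treated to model to control livers (means 1.95, 1.25 and 0.754), Col4a1 to Col4a2 is highest in treated livers, and Col6a1 to Col6a2 overlaps in all groups.

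Genes that modify, trim and cross-link collagen were examined as the surrounding pathway, with 31 genes on the list having a count and 30 tested. In treated compared with model livers 6 of the 30 were called higher (3 without model replicate 1) and none lower, beside 5.21% and 4.44% of all genes. In treated compared with control livers 6 were higher and 3 lower, beside 9.36% and 8.47%, and in model compared with control livers none was called by edgeR (5 with an unadjusted p under 0.05, and 2 called lower by DESeq2). Serpinh1, the collagen chaperone HSP47, had 15.1, 17.4 and 14.7 CPM in treated, 5.12, 3.80 and 4.30 CPM in model, and 10.8, 6.999 and 6.20 CPM in control libraries. Treated libraries lay highest and model libraries lowest, without overlap. It rose 3.57-fold in treated over model livers (log2 fold change 1.84, SE 0.22, adjusted p = 0.000774) and 1.97-fold in treated over control livers (adjusted p = 0.0108).

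Of the proteinases that remove the amino-terminal propeptide, Adamts2 had 7.79, 11.2 and 9.46 CPM in treated, 3.31, 5.08 and 2.99 CPM in model, and 3.74, 4.19 and 3.47 CPM in control libraries. It rose 2.49-fold in treated over model (adjusted p = 0.0078) and 2.49-fold in treated over control livers (adjusted p = 0.00399), and Adamts14 was called higher in both comparisons as well. Of the cross-linking enzymes, Loxl2 had 4.86, 6.20 and 5.02 CPM in treated, 1.95, 1.92 and 1.14 CPM in model, and 2.91, 2.23 and 2.22 CPM in control libraries. It rose 3.21-fold in treated over model livers (adjusted p = 0.00457) and 2.18-fold in treated over control livers (adjusted p = 0.0175, lost without control replicate 2 or 3 or treated replicate 2, highest adjusted p = 0.0651). Lox, the founding lysyl oxidase, had 2.17, 3.97 and 2.09 CPM in treated, 0.234, 0.599 and 0.158 CPM in model, and 0.0715, 0.346 and 0.317 CPM in control libraries. Its treated libraries stood above the other 6, which were all at or below 0.599 CPM, and it rose 8.24-fold in treated over model (log2 fold change 3.04, or 3.79 without model replicate 2, adjusted p = 0.016, lost without model replicate 1 or 3 or treated replicate 2, highest adjusted p = 0.0717) and 11.2-fold in treated over control livers (adjusted p = 0.00523). Loxl1 was also called higher in treated over model livers.

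P4ha1, a catalytic subunit of prolyl 4-hydroxylase, had 14.0, 18.5 and 11.2 CPM in treated, 7.08, 12.2 and 7.42 CPM in model, and 10.97, 7.65 and 10.2 CPM in control libraries, and was not called in treated over model (1.64-fold, adjusted p = 0.108) or treated over control livers (1.51-fold, adjusted p = 0.129). Mia3, which loads procollagen for export from the endoplasmic reticulum, had 132, 141 and 152 CPM in treated, 164, 148 and 177 CPM in model, and 221, 239 and 204.5 CPM in control libraries. Control libraries lay above all others, and it was 1.56-fold lower in treated than in control livers (log2 fold change -0.64, SE 0.11, adjusted p = 0.00262). Bmp1, which removes the carboxy-terminal propeptide, and Plod1, a lysyl hydroxylase, were the other genes called lower in treated than in control livers, and Crtap, a partner of prolyl 3-hydroxylase, was called higher there.

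**Figure D5:**
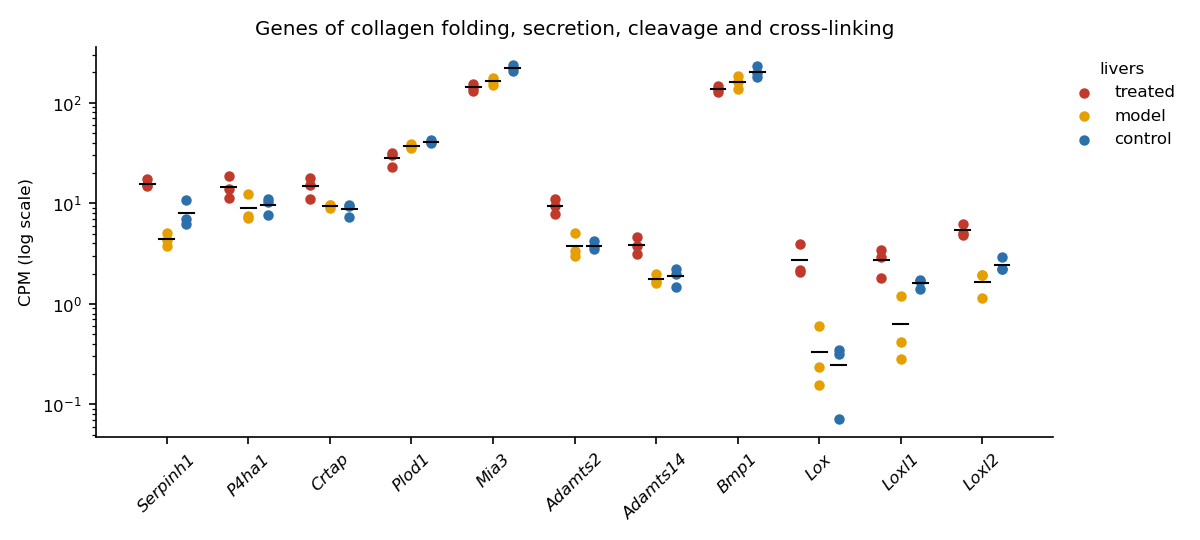
CPM (log scale) of 11 genes of collagen folding, secretion, cleavage and cross-linking, with 1 point per library and a line at the mean of each group of 3. All but P4ha1 were called in a comparison, so the figure does not stand for the whole list. Of the 30 genes tested, 6 were called in treated over model and 9 in treated over control livers. Serpinh1, Adamts2, Lox and Loxl2 lie higher in all treated libraries than in any other library, while Mia3 lies highest in control livers.

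The list of collagen receptors, uptake receptors and related surface proteins held 16 genes, all tested, and not every member is an established collagen receptor. In treated over model livers 2 of the 16, Cd93 and Mrc2, were called higher, beside 5.21% of all genes, and in model over control livers Cd93 was called lower, beside 0.596% of all genes called lower there. In treated over control livers 4 were called higher (Cd36, Ddr1, Lair1 and Mrc2) and 3 lower (Itga1, Mrc1 and Stab1), beside 9.36% and 8.47% of all genes, a total of 7 that became 0 without control replicate 3 and 2 to 5 without any other single library of these groups. Mrc2, the collagen uptake receptor Endo180, had 6.15, 6.49 and 4.09 CPM in treated, 1.24, 3.43 and 1.24 CPM in model, and 2.18, 2.46 and 1.79 CPM in control libraries. It was 2.82-fold higher in treated than in model livers (adjusted p = 0.0405, log2 fold change 1.498, and 2.16 without model replicate 2) and 2.599-fold higher in treated than in control livers (adjusted p = 0.0368), calls that were lost without model replicate 1 or 3 or any 1 treated library in the first case (highest adjusted p = 0.141), and without any 1 control library or treated replicate 1 or 2 in the second (highest adjusted p = 0.11). Cd93, a surface protein of endothelial cells, had 5.63, 7.26 and 6.20 CPM in treated, 2.13, 2.53 and 2.14 CPM in model, and 4.67, 5.21 and 6.31 CPM in control libraries. Model libraries lay below all others, 2.38-fold lower than control livers (adjusted p = 0.0219, lost without control replicate 2 or 3 or any 1 model library, highest adjusted p = 0.088), and treated livers were 2.81-fold above model livers (adjusted p = 0.0021).

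The discoidin receptors differed from each other. Ddr1 had 7.25, 3.10 and 3.68 CPM in treated, 1.48, 2.25 and 1.73 CPM in model, and 2.00, 0.577 and 1.27 CPM in control libraries, and was 3.64-fold higher in treated than in control livers (adjusted p = 0.0189, lost without control replicate 2 or 3 or treated replicate 1, highest adjusted p = 0.0845). Ddr2 had 1.47, 1.89 and 1.97 CPM in treated, 2.29, 2.65 and 1.89 CPM in model, and 3.34, 3.02 and 2.80 CPM in control libraries, with no call (treated over control 1.72-fold lower, adjusted p = 0.0673). Lower in treated than in control livers were Itga1, the alpha subunit of a collagen-binding integrin (1.43-fold lower, adjusted p = 0.0195, lost without control replicate 1 or 3 or treated replicate 1 or 2, highest adjusted p = 0.0767), Mrc1, a mannose receptor of sinusoidal endothelium and macrophages (1.84-fold lower, adjusted p = 0.0169, and 0.0576 without control replicate 3), and Stab1, a scavenger receptor of the same cells. Endothelial markers, which include Stab1, were called lower in 10 of 10 in that comparison, beside 8.47% of all genes.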

How the data were processed

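Gene values were deposited by the authors as estimated counts, with FPKM for genes and transcripts, per the file headers. HISAT2 is the aligner in the submitters' processing notes. The quantifier, its strand setting and its annotation are not stated in the sources used here, so how reads of overlapping genes were counted is unknown and such values are uncertain. Coordinates are those of the files. All 40 members are in GENCODE M21 (GRCm38), and 34 have the same start and end there.

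Estimated counts entered edgeR 4.0.16 (R 4.3.3; quasi-likelihood F test, robust, TMM scaling) in a single fit of all 9 libraries by group, after filterByExpr with a minimum count of 10 and a minimum total of 15. P-values were adjusted over all 18113 genes within each of 3 comparisons. CPM are on TMM-scaled library sizes, and fold changes and SE are those of the fit. FPKM were used as deposited, without TMM scaling. Chain ratios were taken from the deposited FPKM and compared by exact 2-sided permutation tests (scipy 1.17.1). Libraries held 56440871 to 60665156 estimated counts and 20579 to 21441 genes with a count. The floor for a gene without counts is 3 counts, or 0.044 to 0.0577 CPM, and covers counting error only.

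The members, pathway lists and marker lists were chosen with earlier results of these data known. Named with all values were members called in any comparison or with a mean of at least 5 CPM in a group. From each pathway list the 3 called genes with the smallest p in each comparison were named, with Serpinh1, P4ha1, Lox, Ddr2 and Itga1 in any case. Pathway genes named by symbol alone were added after their values were seen. The procedure was also run on simulated counts, in which all libraries had the same mean profile apart from planted changes. That run does not test effects of differing tissue content, such as the muscle transcripts here. Alternatives were RLE and upper-quartile scaling, no filter, a stricter filter (1 CPM in 3 libraries), a replicate block, DESeq2 1.42.0, limma-voom (limma 3.58.1), a fit of only the groups compared, and each library left out in turn. Leaving out libraries from the chain ratios was added after seeing the data.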

Additional observations from a re-analysis of the deposited data

How the results depend on the processing

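Of the calls on collagen chains, 6 of 9 in treated over model and 12 of 15 in treated over control livers held in all 14 alternatives. In model over control livers the number of collagen chains called was 0, but 1 with upper-quartile scaling, a stricter filter, limma-voom or only the 2 groups compared, and 4 with DESeq2. Leaving out a library gave 0 in that comparison, 6 to 10 in treated over model (9 with all) and 12 to 15 in treated over control livers (15 with all). DESeq2 called 2 processing genes in model over control livers (0 by edgeR), 3 receptor genes there (1 by edgeR) and 4 receptor genes in treated over model livers (2 by edgeR), where the fit of only the 2 groups called 1. Without a library, processing genes numbered 3 to 5 in treated over model livers (6 with all), and receptor genes 0 to 1 in model over control, 1 to 2 in treated over model and 0 to 5 in treated over control livers (7 with all). No pairing by replicate number was detected, as 2 of 9 libraries correlated best with their own number. The correlations between libraries of different groups were small (-0.0756 to 0.0716), so this check cannot exclude pairing or a shared batch. With the number as a block 0, 8 and 14 collagen chains were called in model over control, treated over model and treated over control livers.

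The log2 fold changes that turned sign were all uncalled. Without a library they ran from -0.29 to 0.25 for Col14a1 and from -0.27 to 0.19 for Col5a3 in treated over control livers, and in model over control livers from -0.19 to 0.0381 for Col18a1, -0.49 to 0.16 for Col3a1, -0.24 to 0.23 for Col4a2, -0.37 to 0.17 for Col5a1 and -0.52 to 0.40 for Col5a2. The change of Col5a3 in treated over control livers was -0.00956 with upper-quartile scaling and -0.0189 with limma-voom. The log2 difference of the Col6a1 to Col6a2 ratio ran from -0.34 to 0.45 in model over control, -0.32 to 0.22 in treated over model and -0.35 to 0.44 in treated over control livers, and that of Col5a1 to Col5a2 from -0.19 to 0.19 in model over control livers. The cause was not tested. The Col1a1 to Col1a2 and Col4a1 to Col4a2 differences kept their sign without any library. Genes well under 1 CPM rest on few counts, as 1 count is worth 0.0147 to 0.0192 CPM. A difference in them may not be detectable at this depth. Calls were still made on low values, as for Lox, at or below 0.599 CPM in model and control libraries.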
